A study of Mus musculus with 3 samples.

Results

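Basigin, its relatives neuroplastin and embigin, the monocarboxylate carriers they escort and the lactate dehydrogenases were described at the transcript level in microvascular fragments of mouse brain, in which capillary endothelium stays joined to the cells around it. The 8 genes (Bsg, Nptn, Emb, Slc16a1, Slc16a3, Slc16a7, Ldha and Ldhb) were chosen by gene symbol from the 56941 genes of the deposited table, with their levels in these same libraries already known, so levels are given as a description and without a test. The 3 libraries hold polyadenylated RNA from fragments of wild-type adult C57BL/6J mouse brain, 1 per mouse, and form a single group. The labels name no treatment, sex, exact age or batch, and no whole brain or sorted cell population was analysed here, so enrichment over brain was not measured. Each library was prepared from 400 ng of RNA and read as pairs of 150 bp.

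Basigin, also known as CD147 or EMMPRIN, is a glycoprotein of the immunoglobulin superfamily that carries the monocarboxylate carriers MCT1 and MCT4 to the cell surface, where both need it to work. Embigin serves MCT2 in the same way, and neuroplastin, best known at synapses, can also escort carriers and plasma membrane calcium pumps. MCT1 (Slc16a1), MCT2 (Slc16a7) and MCT4 (Slc16a3) move lactate, pyruvate and ketone bodies together with a proton. In brain, MCT1 is known from capillary endothelium and glia, MCT2 from neurons and MCT4 from astrocytes. Lactate dehydrogenase interconverts pyruvate and lactate as a tetramer of the subunits encoded by Ldha, which predominates in glycolytic tissue, and Ldhb, which predominates in oxidative tissue.

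The promoter windows of both dehydrogenases and of 2 carriers are shown because the transcript levels within each of these pairs are compared in what follows. They come from RefSeq on build GRCm38.p6, which differs from the GRCm39 build of the counts, and each holds 250 bases before and 50 after the annotated start, 5′ to 3′ on the gene's strand. Capitals mark the letters ACGTG on either strand, a form of the core of the hypoxia response element. The other form, GCGTG, was not searched for and is not in capitals. A CACGTG (the E-box) counts as 2 overlapping matches because it reads the same on both strands.

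Ldha, chr7:46845554-46845853, plus strand: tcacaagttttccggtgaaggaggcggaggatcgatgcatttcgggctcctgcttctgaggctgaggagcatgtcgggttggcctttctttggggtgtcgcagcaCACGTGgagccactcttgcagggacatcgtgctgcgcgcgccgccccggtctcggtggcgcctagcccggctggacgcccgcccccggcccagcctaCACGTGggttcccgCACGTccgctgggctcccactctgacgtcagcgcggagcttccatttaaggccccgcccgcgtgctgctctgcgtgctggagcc
Ldhb, chr6:142507908-142508207, minus strand: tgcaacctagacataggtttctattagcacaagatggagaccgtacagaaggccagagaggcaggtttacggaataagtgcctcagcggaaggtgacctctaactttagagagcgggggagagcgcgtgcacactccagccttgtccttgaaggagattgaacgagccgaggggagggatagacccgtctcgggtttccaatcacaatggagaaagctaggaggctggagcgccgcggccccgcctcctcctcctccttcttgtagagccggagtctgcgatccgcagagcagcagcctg
Slc16a1, chr3:104638414-104638713, plus strand: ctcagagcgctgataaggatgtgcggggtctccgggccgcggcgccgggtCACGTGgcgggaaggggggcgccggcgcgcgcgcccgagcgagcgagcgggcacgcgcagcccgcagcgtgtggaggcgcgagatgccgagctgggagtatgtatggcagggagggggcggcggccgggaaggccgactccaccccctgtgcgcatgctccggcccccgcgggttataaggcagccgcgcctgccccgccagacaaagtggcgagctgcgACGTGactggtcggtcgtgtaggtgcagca
Slc16a3, chr11:120948817-120949116, plus strand: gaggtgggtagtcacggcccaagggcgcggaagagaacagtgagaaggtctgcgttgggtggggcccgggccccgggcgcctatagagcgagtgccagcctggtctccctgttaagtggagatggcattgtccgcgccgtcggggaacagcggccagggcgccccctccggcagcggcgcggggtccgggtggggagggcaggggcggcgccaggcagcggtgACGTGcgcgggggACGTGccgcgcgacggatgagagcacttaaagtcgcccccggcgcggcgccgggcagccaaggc

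The Ldha window held 5 matches to ACGTG, 4 of which form 2 copies of CACGTG, and the Ldhb window held 0. The letters GCGTG, not counted here, stand in both of these windows. Slc16a1 had 3 matches with 1 CACGTG, and Slc16a3 had 2 matches and 0 CACGTG. Windows were matched by symbol for 6 of the 8 genes (not Bsg and Slc16a7), and the remaining ones gave 4 matches for Nptn, 0 for Emb and 0 for a second Ldha start. Among all 32851 windows of 300 bases, 19.6% held ACGTG and 7.15% held CACGTG on either strand. ACGTG had 3 or more matches in 1.73% of them. These windows were not matched to those of the genes described here by their content of G and C. That content was 67.3% for Ldha, 57.3% for Ldhb, 73.7% for Slc16a1 and 73.3% for Slc16a3. For Nptn it was 66.7%, for Emb 57.7% and for the second Ldha start 56.7%. The GC box letters GGGCGG stood 3 times each in the Ldha and Nptn windows and 1 time each in those of Emb, Slc16a1 and Slc16a3. They stood 0 times in the Ldhb window and at the second Ldha start. Of all windows, 35.7% had at least 1 match and 10.7% had 3 or more. These matches describe the letters only, and no binding was measured.

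Library totals were 128428355, 136672205 and 150449539 counts in replicates 1, 2 and 3, so a count of 0 allows at most 0.0234, 0.0220 and 0.0199 CPM, the count scaled to the size of the library (3 counts of the total, counting error only). All 6 endothelial markers were at 898 CPM or more in every library, with summed levels of 11504, 13519 and 14667 CPM in replicates 1, 2 and 3. Markers of other cells were present as well. Summed levels in the same order were 5478, 4056 and 4834 CPM for 5 microglial, 3171, 3157 and 3003 CPM for 5 pericyte, 4132, 3582 and 4156 CPM for 4 smooth muscle, 6818, 8131 and 5018 CPM for 5 choroid plexus, 1506, 1638 and 853 CPM for 6 astrocyte, 135, 113 and 122 CPM for 4 fibroblast, 117, 104 and 101 CPM for 5 oligodendrocyte and 107, 86.3 and 102 CPM for 5 neuronal genes. Globin and other erythroid genes (5) summed to 1088, 134 and 62.5 CPM, and pituitary hormone genes (4) to 19.0, 1431 and 16.9 CPM, so replicate 1 stands apart in the first and replicate 2 in the second. At 1 CPM or more in every library, all 8 genes described here were detected, against 23.2% of the genes in the table, and 5 of 8 reached 100 CPM in every library, against 3.45%. Both counts restate how the genes were chosen and carry no test.

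**Figure D1:**
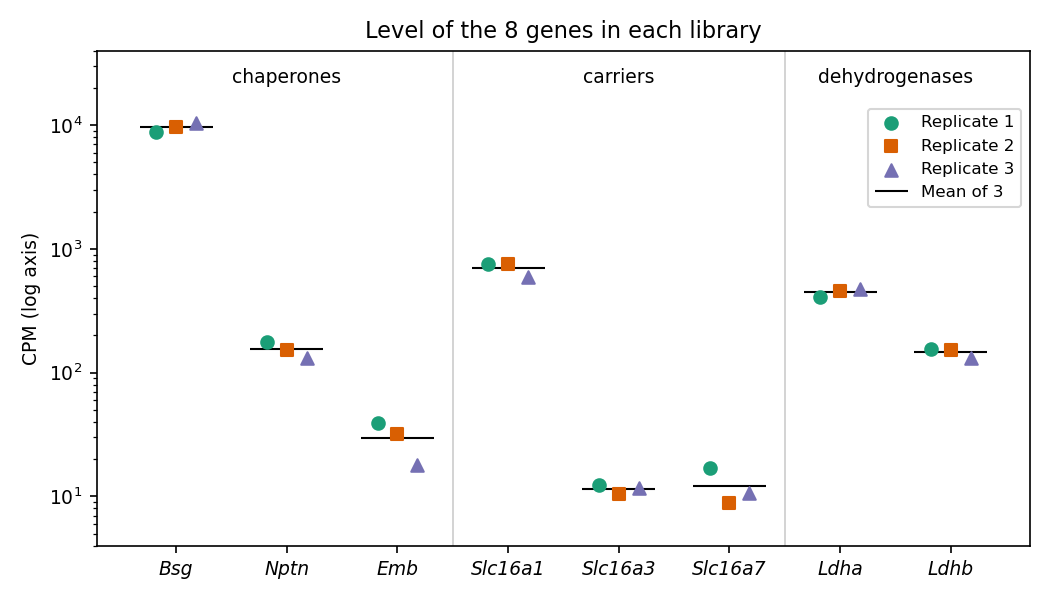
Level of each of the 8 genes in CPM (log axis) in replicates 1, 2 and 3, with a black line at the mean of 3 libraries. Bsg lies between 8866 and 10483 CPM, while Slc16a3 and Slc16a7 lie between 8.86 and 17.0 CPM.

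Bsg was the most abundant nuclear transcript by CPM in all 3 libraries. It had 8866, 9756 and 10483 CPM in replicates 1, 2 and 3, or 9702 ± 809.7 CPM (SD, n = 3). These counts made up 0.898% (95% Wilson interval 0.897 to 0.900), 0.998% (0.996 to 1.00) and 1.01% (1.01 to 1.01) of each library, and the intervals cover counting error only. The proteoglycan gene Spock2, next by mean CPM, had 4870.01, 6894 and 7237 CPM in the same order, but in each library Ttr or Slc2a1 stood between it and Bsg. CPM grows with transcript length, so genes were compared with each other per kb of exonic length (union of all annotated exons, GENCODE M21). On that scale Bsg, with 1814 exonic bases, had 4888, 5378 and 5779 CPM per kb, and Ttr, the transthyretin gene of choroid plexus epithelium, had 5336, 6542 and 4013 CPM per kb. Bsg therefore ranked second behind Ttr in replicates 1 and 2 and first in replicate 3, and the means of 5348 ± 446 and 5297 ± 1265 CPM per kb did not differ beyond their spread (Bsg over Ttr 1.06 ± 0.33, SD, n = 3). With the length of the longest transcript in place of the exon union, Bsg ranked first in replicates 1 and 3 and second in replicate 2.

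The other chaperones were far lower. Nptn, which encodes neuroplastin, had 178, 153 and 132 CPM in replicates 1, 2 and 3. Emb, the embigin gene, had 39.2, 31.9 and 17.8 CPM, lowest in replicate 3. Per kb, Bsg exceeded Nptn 169.5-, 216- and 269-fold and Emb 861-, 1165- and 2236-fold within the libraries, and Bsg was the higher in 3 of 3. Bsg made up 99.4 ± 0.14% of the summed per-length level of the chaperones, Nptn 0.472 ± 0.109% and Emb 0.0817 ± 0.0355% (SD, n = 3). The Bsg share was 99.5% without replicate 1 and 99.4% without replicate 2. With 3 mice an exact sign-flip test cannot give a two-sided p below 0.25, so these within-library comparisons have no test and are read against the spread over mice.

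Among the carriers, Slc16a1 stood alone. It had 753, 751 and 599 CPM in replicates 1, 2 and 3, lowest in replicate 3, and averaged 701 ± 88.2 CPM (SD, n = 3). Slc16a3 had 12.3, 10.5 and 11.8 CPM, a narrow range. Slc16a7 had 17.0, 8.86 and 10.7 CPM, highest in replicate 1. In CPM the levels of Slc16a3 and Slc16a7 overlapped, whereas per kb Slc16a3 was 1.62-, 2.63- and 2.45-fold above Slc16a7, since Slc16a7 has 11839 exonic bases and Slc16a3 has 5318. Slc16a1 made up 98.0 ± 0.37% of the summed per-length level of these carriers, Slc16a3 1.36 ± 0.23% and Slc16a7 0.636 ± 0.195%. Slc16a7 was highest in replicate 1 and lowest in replicate 2, an order shared by 4 of the 5 microglial, 3 of the 4 fibroblast and 1 of the 5 neuronal markers (Syt1). The summed levels of all 3 lists have that order, the neuronal sum being mostly Stmn2, which is highest in replicate 3. The part of these cell types in the Slc16a7 values was not tested. Without replicate 1, which stands apart in erythroid genes, the Slc16a1 share was 98.1%, and without replicate 2, which stands apart in pituitary genes, it was 97.8%.

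Chaperone transcripts outnumbered carrier transcripts. Per kb, Bsg was 28.7-, 31.7- and 42.7-fold above Slc16a1 in replicates 1, 2 and 3, and the summed chaperones were 33.9 ± 7.13-fold above the summed carriers (SD, n = 3). Without Bsg the order was the opposite: Nptn and Emb together came to 0.181 ± 0.015 of the summed carriers. These are ratios of transcripts, and protein was not measured.

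Ldha was above Ldhb in every library. Ldha had 411, 456 and 474 CPM in replicates 1, 2 and 3, and Ldhb had 156, 153 and 131 CPM. The Ldha values were lowest in replicate 1 and the Ldhb values lowest in replicate 3. Per kb of exonic length the values of the pair did not overlap, and Ldha stood 1.25-, 1.41- and 1.72-fold above Ldhb, so that Ldha made up 55.6%, 58.6% and 63.3% of their summed level (59.2 ± 3.88%, SD, n = 3). The size of this share depends on length: it was 68.7 ± 3.44% per length of the longest transcript, which is 1815 bases for Ldha and 1304 for Ldhb, and 75.3 ± 2.97% in counts. Without replicate 1, 2 or 3 the share per exonic length was 60.9%, 59.5% and 57.1%. The remaining dehydrogenases were far lower, Ldhd with 0.727 CPM per kb. Ldhd, which acts on D-lactate, averaged 3.87 ± 0.323 CPM, the testis gene Ldhc had 0.0215 CPM in replicate 2 and 0 counts in the other libraries, and Ldhal6b had 0 counts in all 3.

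**Figure D2:**
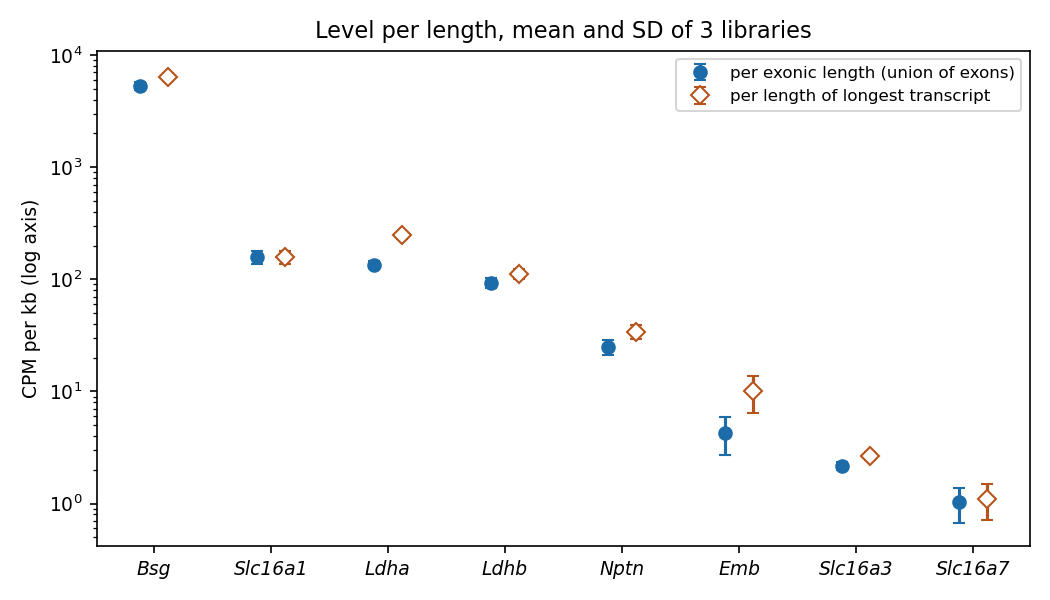
Mean and SD over 3 libraries of the level per kb (CPM per kb, log axis), by the union of annotated exons (filled circles) and by the longest transcript (open diamonds). Bsg is far above the rest on both scales, and Slc16a1 and Ldha change places between them.

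By level per kb of exonic length the order was Bsg, Slc16a1 (158 ± 19.9 CPM per kb), Ldha (135 ± 9.84), Ldhb (93.2 ± 8.80), Nptn (25.04 ± 3.69), Emb (4.29 ± 1.57), Slc16a3 (2.16 ± 0.179) and Slc16a7 (1.03 ± 0.359). Slc16a1 and Ldha overlapped: Slc16a1 was 1.37- and 1.23-fold above Ldha in replicates 1 and 2 and at 0.944 of it in replicate 3, and the mean ratio of 1.18 ± 0.22 turned to 0.648 ± 0.119 by longest transcript. The ranges of the other neighbours in this order did not overlap, although Emb was only 1.17-fold above Slc16a3 in replicate 3, against 2.45- and 2.35-fold in replicates 1 and 2. Emb is also the gene whose annotated lengths differ most, with 6906 exonic bases over 6 transcripts and 2923 in the longest. Among all nuclear genes with a known length, Slc16a1 ranked 231st, next below Ftl1 (ferritin light chain, 161 ± 3.79 CPM per kb). Ldha ranked 296th beside S100a16 and the vascular surface gene Cd34, Ldhb 445th, Nptn 1930th, Emb 7507th, Slc16a3 9578th and Slc16a7 11318th.

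The spread between the 3 mice was tested for each gene with edgeR's quasi-likelihood dispersion, compared with the trend over genes of like abundance. None of the 8 genes was called at an adjusted p under 0.05, against 15 of 18087 genes in all (0.0829%). At an unadjusted p under 0.05 there were 2 of the 8, against 937 of all 18087 (5.18%), namely Emb (adjusted p = 0.554) and Slc16a7 (adjusted p = 0.924); the other 6 each had an adjusted p of 0.993 by the same edgeR test. A robust prior in edgeR called 0 of all genes, and DESeq2 marked 112 dispersion outliers, with 0 of the 8 genes among them. A gene that was not called can still differ between mice.

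Emb was the most uneven of the 8 genes, with 2.20-fold between its highest and lowest library, a ratio that 1.39% of the 13211 detected genes exceeded. Emb was called only when replicate 2 was left out, with an edgeR adjusted p of 0.00402 and 80 of 18362 genes called (0.436%). Without replicate 1 or 3 the edgeR adjusted p of Emb was 0.483 and 0.997. With all libraries and no filter on low counts it was 0.0505. Replicate 2 held the middle Emb value. The dispersion of Emb relative to the trend was larger without replicate 1 than without replicate 2. Unadjusted p values of Emb by the same edgeR test were 0.00372 without replicate 1 and 8.99e-06 without replicate 2. Why the smaller dispersion had the lower p was not tested. Slc16a7 had 1.91-fold between its highest and lowest library, exceeded by 2.93% of detected genes. The other 6 spanned 1.15-fold (Ldha) to 1.34-fold (Nptn), beside a median of 1.20-fold over all detected genes. In these bulk libraries fewer cells of a type and less RNA per cell cannot be told apart.

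**Figure D3:**
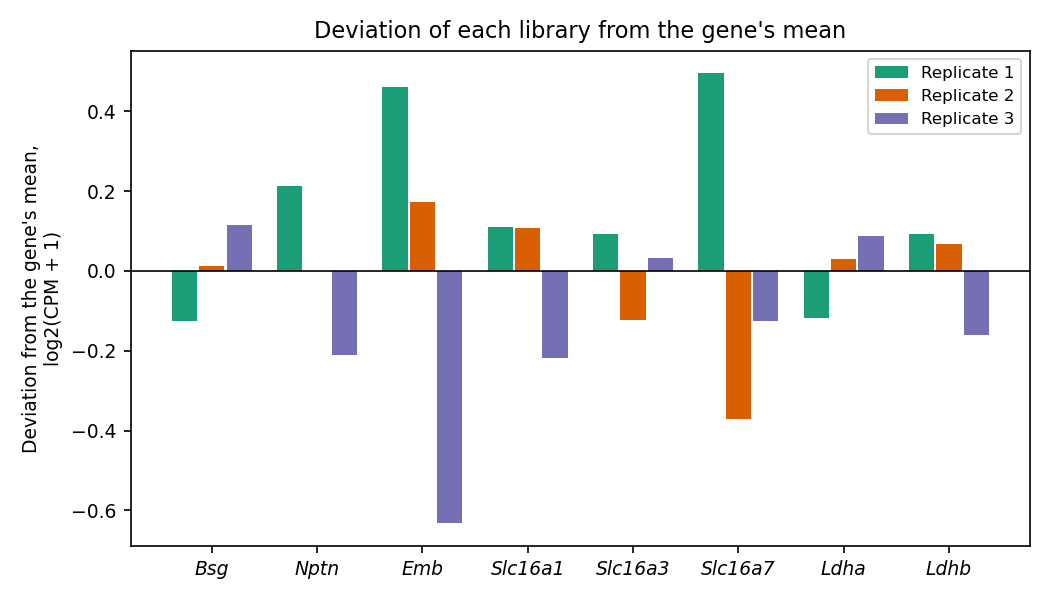
Deviation of each library from the gene's own mean on the log2(CPM + 1) scale, for the 8 genes in replicates 1, 2 and 3. Emb spans 0.46 to -0.63 and Slc16a7 0.50 to -0.37, while Bsg and Ldha are lowest in replicate 1 and Nptn, Emb, Slc16a1 and Ldhb are lowest in replicate 3.

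The genes did not shift together. Bsg deviated by -0.13, 0.01 and 0.12 from its mean log2(CPM + 1) in replicates 1, 2 and 3, and Ldha by -0.12, 0.03 and 0.09. The ratio of Bsg to Ldha per kb was accordingly almost the same in each library, at 39.4, 39.1 and 40.3. Nptn, Emb, Slc16a1 and Ldhb had their lowest value in replicate 3, with deviations there of -0.21, -0.63, -0.22 and -0.16. The endothelial markers had median deviations of -0.18, 0.04 and 0.12 in replicates 1, 2 and 3, astrocyte markers 0.07, 0.24 and -0.32, choroid plexus markers 0.33, 0.11 and -0.38 and erythroid markers 2.26, -0.63 and -1.59, in each case over all genes of the list (6, 6, 5 and 5). The markers highest in replicate 1 were 5 of 5 erythroid, 4 of 5 choroid plexus, 4 of 5 microglial, 4 of 5 neuronal and 3 of 4 fibroblast genes. Mitochondrial genes took 3.29%, 1.75% and 1.65% of the counts in replicates 1, 2 and 3. Of the 8 genes described here, 6 were highest in replicate 1, all but Bsg and Ldha, beside 34.5% of all detected genes. Slc16a1 is among these 6 by 753 against 751 CPM only, and as a share of library totals it was highest in replicate 2 (0.0763%, 0.0768% and 0.0578% in replicates 1, 2 and 3). The part of these cell types, or of RNA quality, in the values of Emb, Nptn, Slc16a1 and Ldhb was not tested.

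By Euclidean distance of the log2(CPM + 1) deviations over the 3 libraries, the genes most like Bsg among 2168 others at a mean of 100 CPM or more were Map4k4 (distance 0.0032), Eif3f, Atp6v1e1, Ext2 and Rpl11. With only 3 libraries and a small spread, 484 genes lay within a distance of 0.1 of Bsg.

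**Figure D4:**
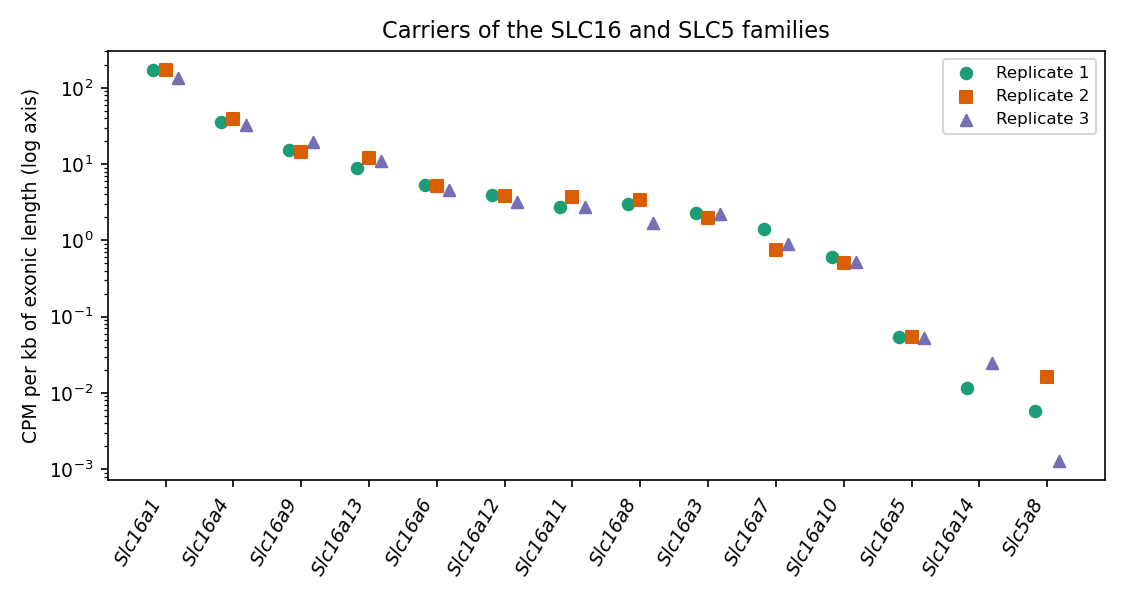
Level in CPM per kb of exonic length (log axis) of SLC16 genes and of Slc5a8 in replicates 1, 2 and 3, ordered by mean. Of the genes shown, Slc16a1 stands highest with a mean of 158 CPM per kb, followed by Slc16a4 with 35.9. By mean Slc16a3 and Slc16a7 lie below Slc16a8, although Slc16a3 is above it in replicate 3. Slc5a12, and Slc16a14 in replicate 2, had 0 counts and no point.

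Of 12 other genes of the monocarboxylate carrier families, 8 were detected. Slc16a4 had 139.6, 151 and 127 CPM in replicates 1, 2 and 3, and per kb it averaged 35.9 CPM, against 158 for Slc16a1. Slc16a9, which encodes a carnitine carrier, averaged 63.7 ± 9.60 CPM, Slc16a13 27.6 ± 4.01 CPM and Slc16a6 24.5 ± 2.05 CPM. At the low end Slc16a14 had 5, 0 and 12 counts in replicates 1, 2 and 3, and Slc5a12, which encodes a sodium-coupled monocarboxylate carrier, had 0 counts in all 3. Of the 12 genes, 9 could be tested for spread between mice with edgeR, and none was called, with 1 at an unadjusted p under 0.05 (Slc16a8; 5.18% of all genes). Slc16a8, which encodes MCT3 of retinal pigment and choroid plexus epithelium and another client of basigin, was named after its values were seen. It had 6.92, 7.73 and 3.80 CPM, lowest in replicate 3 like all the choroid plexus and all the astrocyte markers. The part of either cell type in these values was not tested.

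**Figure D5:**
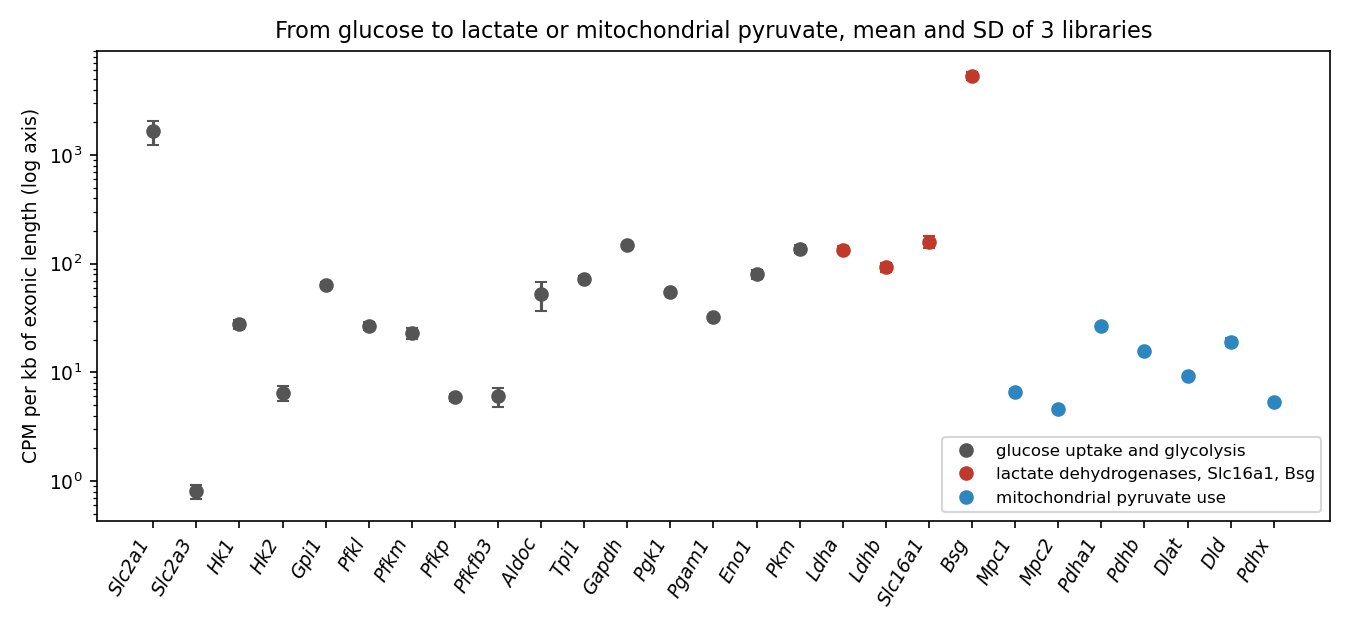
Mean and SD over 3 libraries of the level in CPM per kb of exonic length (log axis) for glucose uptake and glycolysis (grey), the lactate dehydrogenases, Slc16a1 and Bsg (red) and the subunits of the mitochondrial pyruvate carrier and pyruvate dehydrogenase (blue). Ldha, Ldhb and Slc16a1 lie between 93.2 and 158 CPM per kb, and the mitochondrial subunits have means of 26.5 or less. Aldoa has no matched length and no point.

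The genes leading from glucose to pyruvate were all detected (17 of 17), and 11 reached 100 CPM in every library. Slc2a1, which encodes GLUT1, the main glucose carrier of brain endothelium, led with 5391, 4599.98 and 7338 CPM in replicates 1, 2 and 3, highest in replicate 3. Pkm, which encodes the pyruvate kinase that makes the substrate of lactate dehydrogenase, averaged 685 ± 54.7 CPM, Gapdh 608 ± 18.5 CPM and the aldolase gene Aldoa 574 ± 25.9 CPM. Per kb, Pkm stood at 1.00, 1.02 and 1.01 times Ldha in the 3 libraries. At the low end the neuronal glucose transporter gene Slc2a3 averaged 5.82 ± 0.897 CPM and the hexokinase gene Hk2 38.4 ± 5.95 CPM.

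Genes of mitochondrial pyruvate use had lower levels per kb than Ldha. All 14 were detected and 0 reached 100 CPM in every library, with Pdha1, a subunit of pyruvate dehydrogenase, at 99.1 ± 5.14 CPM, Dld at 70.1 ± 6.15 CPM, Pdhb at 60.9 ± 1.59 CPM and the inhibitory kinase Pdk2 at 53.6 ± 6.42 CPM. The pyruvate carrier subunit Mpc1 was the lowest, at 13.7 ± 0.880 CPM, followed by the phosphatase Pdp2 at 16.5 ± 2.10 CPM. Per kb, Ldha exceeded Mpc1 20.1-, 19.6- and 21.9-fold. None of the genes of either list was called by the edgeR test of spread between mice, with 1 of 17 (Aldoc) and 1 of 14 (Pdk4) at an unadjusted p under 0.05, against 5.18% of all genes.

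Among 18 reported ligands and partners of basigin or neuroplastin, 17 were detected and 10 reached 100 CPM in every library. Slc7a5 and Slc3a2, the light and heavy chains of the amino acid carrier CD98 with which basigin is found in complexes, had 1525, 2147 and 2522 CPM and 739, 869.5 and 1098 CPM in replicates 1, 2 and 3. Both were lowest in replicate 1, like Bsg. Of the 17 detected genes of the list, 8 were highest in that replicate, beside 34.5% of all detected genes. The integrin genes Itgb1 and Itga6 averaged 969 ± 95.2 and 744 ± 95.3 CPM. Ppia, the gene of cyclophilin A, an extracellular ligand of basigin, was named after its values were seen and averaged 644 ± 15.1 CPM. Metalloproteinase genes, whose release basigin is known to induce in tumour stroma, included the lowest of the list, Mmp9, at 0.995 ± 0.324 CPM, and the hyaluronan receptor gene Cd44 averaged 2.67 ± 0.631 CPM. The calcium pump gene Atp2b3, a client of neuroplastin and also named after its values were seen, had 75.9, 60.4 and 36.4 CPM, in the same order over libraries as Nptn and Emb. Slc16a1, Ldhb and all the erythroid markers have that order too, and its share among all detected genes was not computed. Of the other pump genes, Atp2b1 and Atp2b2 have it and Atp2b4 does not. None of the 18 was called by the edgeR test of spread between mice, with 2 at an unadjusted p under 0.05 (Atp2b3 and Mmp15), against 5.18% of all genes.

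Of the genes that sense lactate or control these carriers and enzymes, Hcar1, the lactate receptor, was detected at 7.28, 8.42 and 7.68 CPM in replicates 1, 2 and 3. Epas1, which encodes the hypoxia-inducible factor HIF-2α, averaged 3157 ± 182 CPM, above Hif1a at 109 ± 16.8 CPM. Per kb the levels were 565 and 18.6 CPM. The lactate-binding protein gene Ndrg3 averaged 89.2 ± 5.86 CPM, Myc 5.13 ± 1.05 CPM and Ppargc1a 4.40 ± 1.29 CPM. All 6 were detected, and edgeR called none by spread between mice, with 0 at an unadjusted p under 0.05.

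Several look-alike loci could share reads with these genes. In GENCODE M21, 14 genes in the table carried transcripts with 90.7 to 95.9% identity to Ldha over at least 150 bases, and together they held 102, 108 and 129 counts in replicates 1, 2 and 3, equal to 0.191%, 0.170% and 0.187% of the Ldha counts. Reads that fit Ldha and such a copy equally well could have been dropped or split, depending on how reads with several placements were counted, which is not given in the sources used here. Exons of Gm17509 cover 9.93% of the Emb exons from the opposite strand and those of Rec114 5.58% of the Nptn exons. Gm17509 and Rec114 held at most 4 and 26 counts in a library. With the strand setting not given, these counts cannot show whether reads of Emb or Nptn were lost in the overlaps. Exons of Gm47862 cover 1.51% of the Slc16a7 exons, also from the opposite strand. No such copy or overlapping exon in the table was found for Bsg, Slc16a1, Slc16a3 or Ldhb.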

How the data were processed

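Gene counts of 3 libraries were used as deposited; the authors made them with featureCounts and Subread 1.4.6-p5 on build GRCm39, per the submitters' processing notes. For the aligner, annotation release, strand setting and reads with several placements, the choice is not given in the sources used here. The mean chi-square between pairs of libraries was 179 to 252 per gene, far above sampling noise, so each was kept as a separate sample.

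CPM used TMM effective library sizes over all genes (edgeR 4.0.16, R 4.3.3; factors 1.01, 1.02 and 0.965). Levels per kb divided CPM by exonic length (GENCODE M21, build GRCm38), which 48985 genes had by symbol, holding 98.2% of the counts. That build differs from the counts' build, so it gave lengths, overlaps and look-alike transcripts (BLAST 2.17.0) only. Spread between mice was tested with an intercept-only edgeR quasi-likelihood fit on the 18087 genes kept by filterByExpr, with an upper-tail F test and Benjamini-Hochberg adjustment over all of them. The procedure was also run on simulated counts, and its outcome there is not reported here. Alternatives used DESeq2 1.42.0 and the settings given in the closing section.

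The genes described and all gene lists were chosen with earlier results of these data known. The text names all 8 genes, up to 4 highest and 2 lowest of each pathway list by mean CPM, and the 5 genes nearest to Bsg; exceptions are marked, and some genes that meet this rule are not reported here. The replicates were taken as separate mice from the series' design text.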

Additional observations from a re-analysis of the deposited data

How the results depend on the processing

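Scaling by DESeq2-type size factors (RLE), by library totals or by totals without mitochondrial genes moved the mean CPM of the 8 genes by -0.0960 to 3.20%, and leaving out 1 library moved them by -20.2 to 22.1%, in each case by less than 1 SD. Length mattered more for shares. In counts not scaled by length the share was 75.3% for Ldha, 96.7% for Slc16a1 and 98.1% for Bsg, and by longest transcript it was 68.7% for Ldha and 99.3% for Bsg. By longest transcript, a setting chosen after seeing the data, Slc16a1 over Ldha was 0.648 in place of 1.18 and Emb over Slc16a3 was 3.83 in place of 1.99.

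The number of genes called by spread between mice ranged from 7 to 80 when 1 library was left out (7 without replicate 1, 80 without replicate 2, 33 without replicate 3), with 7, 6 and 15 of the 15 among them. It was 173 with no filter on low counts, 0 with a robust prior (785 at an unadjusted p under 0.05) and 112 as DESeq2 dispersion outliers. The cause of these differences was not tested. Of the 8 genes, only Emb without replicate 2 was called (edgeR adjusted p = 0.00402); over the other edgeR settings its adjusted p was 0.0505 to 0.997. No paired analysis was possible because the 3 libraries form 1 group. Depth does not limit the 8 genes, the lowest of which had 1238 counts, but 3 mice do.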
